A study of Gallus gallus with 31 samples.

Results

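Frizzled genes encode the cell surface receptors of Wnt ligands, and AXIN2 encodes a scaffold protein that acts inside the cell to restrain the same pathway. The genes described here were 6 frizzled genes, FZD1, FZD2, FZD4, FZD6, FZD9 and FZD10, together with AXIN2. They were taken by symbol from an expression table of chicken fat, and are 7 of the 564 genes analysed. All 7 were found. Each symbol and its Entrez number had the same pairing in the RefSeq gene table. A total of 6 of them passed the filter on low values, at least 1 FPKM (a fragment count divided by transcript length and by library size) in at least 7 libraries, and were tested among 423 genes. FZD10 did not pass it and is described by its single values.

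When a Wnt ligand binds a frizzled receptor together with an LRP co-receptor, the complex of axin, APC and GSK3 that marks beta-catenin for breakdown is held back, and beta-catenin enters the nucleus with TCF and LEF factors. AXIN2 is among the direct targets of that step, so its product closes a negative feedback loop. In mammalian preadipocytes, active Wnt signalling through beta-catenin is known to hold back differentiation into fat cells.

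The libraries were made from polyA RNA of flash-frozen fat of male chickens at 42 days of age, all titled as controls. There were 4 libraries of Ross cardiac fat and 4 of Ross abdominal fat from a trial titled Fall 13, 4 of Ross cardiac fat and 4 of Ross abdominal fat from a trial titled Fall 12, and 8 of Illinois cardiac fat and 7 of Illinois abdominal fat from Fall 13. Cardiac fat is the fat around the heart, and abdominal fat is the pad of the belly cavity. Ross birds are broilers, named as Ross 708 in the design text, and the labels give the other line as Illinois only. The labels do not say which libraries came from the same bird. Column names carry a second number that cardiac and abdominal libraries share, and no source says what it is. Libraries were taken as unpaired in the main tests. Each p-value is therefore set against the spread among libraries, which may be technical.

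The label of fat was checked against 3 fat cell genes in the table, FABP4, PPARG and LEPR, whose summed level lay between 1972 and 29645 FPKM in the 31 libraries. Most of this sum, here and below, is FABP4. It alone held 8.17% to 48.6% of the summed FPKM of the 564 genes analysed in each library. Its share of a whole library is not known. A heart muscle signal was defined as CASQ2 at over 10 FPKM. It was held by 4 libraries of cardiac fat, Ross 1208 and 1209 of Fall 12 and Illinois 1107 and 1112, at 77.2, 18.1, 36.3 and 27.5 FPKM. Lower levels were also present elsewhere. The sum of CASQ2 and MYH7B was 0.933 to 9.25 FPKM in Ross abdominal Fall 13 and 0.865 to 22.4 in Ross cardiac Fall 13. It was 0.002 to 0.532 in Ross abdominal Fall 12 and 0.0189 to 0.276 in Illinois abdominal libraries. Its part in differences of the members was not tested. The total depth is not in the deposited values. The steps between low values gave relative depths of 0.649 to 0.900 in Ross cardiac Fall 13, 0.892 to 1.01 in Ross cardiac Fall 12, 0.510 to 1.07 in Ross abdominal Fall 13, 0.578 to 0.684 in Ross abdominal Fall 12, 0.898 to 2.21 in Illinois cardiac and 1.14 to 1.58 in Illinois abdominal libraries. All 8 Ross abdominal libraries had a relative depth below all Illinois abdominal libraries, 7 of them at most 0.726. The depth of the other, 1196 at 1.07, may be off by a factor. Library numbers did not overlap between the depots, the lines or the trials, so a batch of libraries cannot be told apart from any of these differences. In bulk tissue, fewer cells of a type and less RNA per cell cannot be told apart either.

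FPKM is a level per length of transcript, so levels can be set side by side between genes where the transcript lengths used are right. Those lengths could not be checked here. FZD4, which in mammals also serves as the receptor of norrin in blood vessels, had the highest mean of the 7 genes over all libraries, 47.6 ± 25.3 FPKM (SD, n = 31). FZD9, known in mice for a part in bone formation, followed at 31.8 ± 14.5 FPKM, and FZD6, a receptor of planar cell polarity in mice, at 19.5 ± 12.3 FPKM. FZD1, a receptor of the beta-catenin branch, had a mean of 11.97 ± 8.71 FPKM. FZD2, a receptor of WNT5A in mammals, had 6.54 ± 3.39 FPKM, and AXIN2 had 4.15 ± 2.33 FPKM. FZD10, a Wnt receptor of the embryonic chick limb, did not go above 0.561 FPKM in any library. These levels held very different places among the 564 genes, from the 84.8th percentile for the mean of FZD4 to the 37.8th for AXIN2 and the 12.8th for FZD10.

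**Figure D1:**
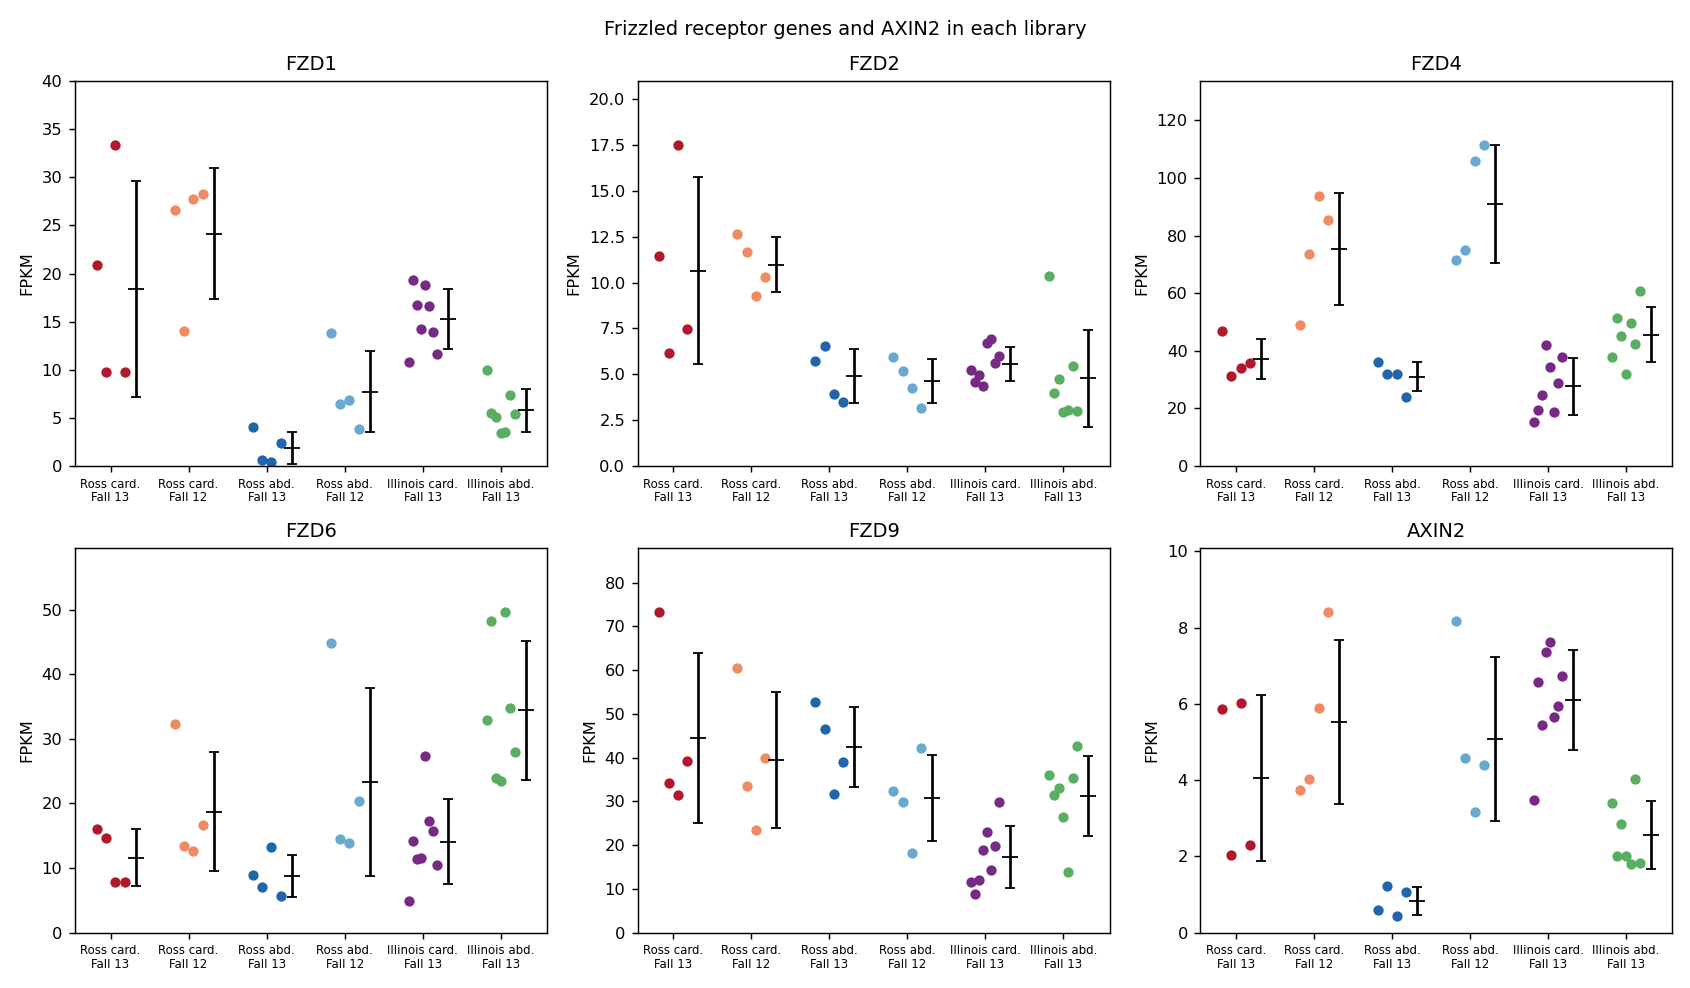
FPKM of 5 frizzled genes and AXIN2 in each library (points) of the 6 groups, with the group mean and SD beside them as a bar. FZD1 points of cardiac fat lie above those of abdominal fat within each line and trial, and AXIN2 points of Ross abdominal fat in Fall 13 are all below 1.22 FPKM.

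The order of the 6 groups differed from gene to gene. For FZD1 the 3 cardiac groups held the highest means, 24.1 ± 6.79 FPKM in Ross cardiac Fall 12, 18.4 ± 11.2 in Ross cardiac Fall 13 and 15.2 ± 3.12 in Illinois cardiac fat. The 3 abdominal groups followed with 7.74 ± 4.25 FPKM in Ross Fall 12, 5.77 ± 2.27 in Illinois and 1.87 ± 1.70 in Ross Fall 13. The Illinois cardiac and Ross abdominal Fall 12 means were the only neighbours in this order that lay further apart than the sum of their SDs.

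For FZD4 the highest groups were both of Fall 12, Ross abdominal at 90.9 ± 20.6 FPKM and Ross cardiac at 75.4 ± 19.5. They were followed by Illinois abdominal (45.5 ± 9.52), Ross cardiac Fall 13 (37.0 ± 6.95), Ross abdominal Fall 13 (30.98 ± 5.08) and Illinois cardiac fat (27.6 ± 9.79). The step between Ross cardiac Fall 12 and Illinois abdominal fat was the only one of these larger than the sum of the SDs of its neighbours.

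AXIN2 ran from 6.11 ± 1.31 FPKM in Illinois cardiac fat through 5.52 ± 2.15 in Ross cardiac Fall 12, 5.09 ± 2.16 in Ross abdominal Fall 12, 4.06 ± 2.18 in Ross cardiac Fall 13 and 2.56 ± 0.883 in Illinois abdominal fat to 0.835 ± 0.368 in Ross abdominal Fall 13. The last step was the only one larger than the sum of the SDs. The lowest and the highest group thus both belonged to Fall 13.

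The orders of FZD2, FZD6 and FZD9 had no neighbours further apart than the sum of their SDs. FZD2 was highest in Ross cardiac Fall 12 (10.99 ± 1.49 FPKM) and Ross cardiac Fall 13 (10.7 ± 5.09), and the other 4 groups lay between 4.64 ± 1.19 in Ross abdominal Fall 12 and 5.54 ± 0.933 in Illinois cardiac fat. FZD6 was highest in Illinois abdominal (34.4 ± 10.8) and lowest in Ross abdominal Fall 13 (8.73 ± 3.30). FZD9 was highest in Ross cardiac Fall 13 (44.5 ± 19.5) and lowest in Illinois cardiac fat (17.3 ± 6.995).

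Differences between the 6 groups made up 79.7% of the sum of squares of log2(FPKM + 1) for FZD1, 76.6% for FZD4, 75.1% for AXIN2, 59.6% for FZD6, 59.3% for FZD2 and 54.7% for FZD9. The median over all tested genes was 42.8%. All 6 were above it, but they were chosen with earlier results of these data known, so this is a description only.

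The 6 frizzled genes were also added up in each library. Their sum was 122 ± 33.5 FPKM in Ross cardiac Fall 13, 169 ± 16.3 in Ross cardiac Fall 12, 89.0 ± 14.5 in Ross abdominal Fall 13, 157 ± 21.9 in Ross abdominal Fall 12, 79.9 ± 19.6 in Illinois cardiac and 122 ± 17.99 in Illinois abdominal fat. The share of FZD1 in this sum was 14.8% ± 8.11, 14.1% ± 3.14 and 19.9% ± 5.49 in Ross cardiac Fall 13, Ross cardiac Fall 12 and Illinois cardiac fat, against 2.03% ± 1.67, 4.95% ± 2.49 and 4.71% ± 1.64 in the matching abdominal groups. FZD4 held 58.0% ± 11.9 of the sum in Ross abdominal Fall 12 and 45.1% ± 12.6 in Ross cardiac Fall 12, and 30.9% to 37.3% on average in the 4 groups of Fall 13. FZD9 held the largest share in Ross abdominal Fall 13, 47.7% ± 5.91, and in Ross cardiac Fall 13, 35.9% ± 7.74. FZD7 and FZD8, also in the table, are not in these sums.

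**Figure D2:**
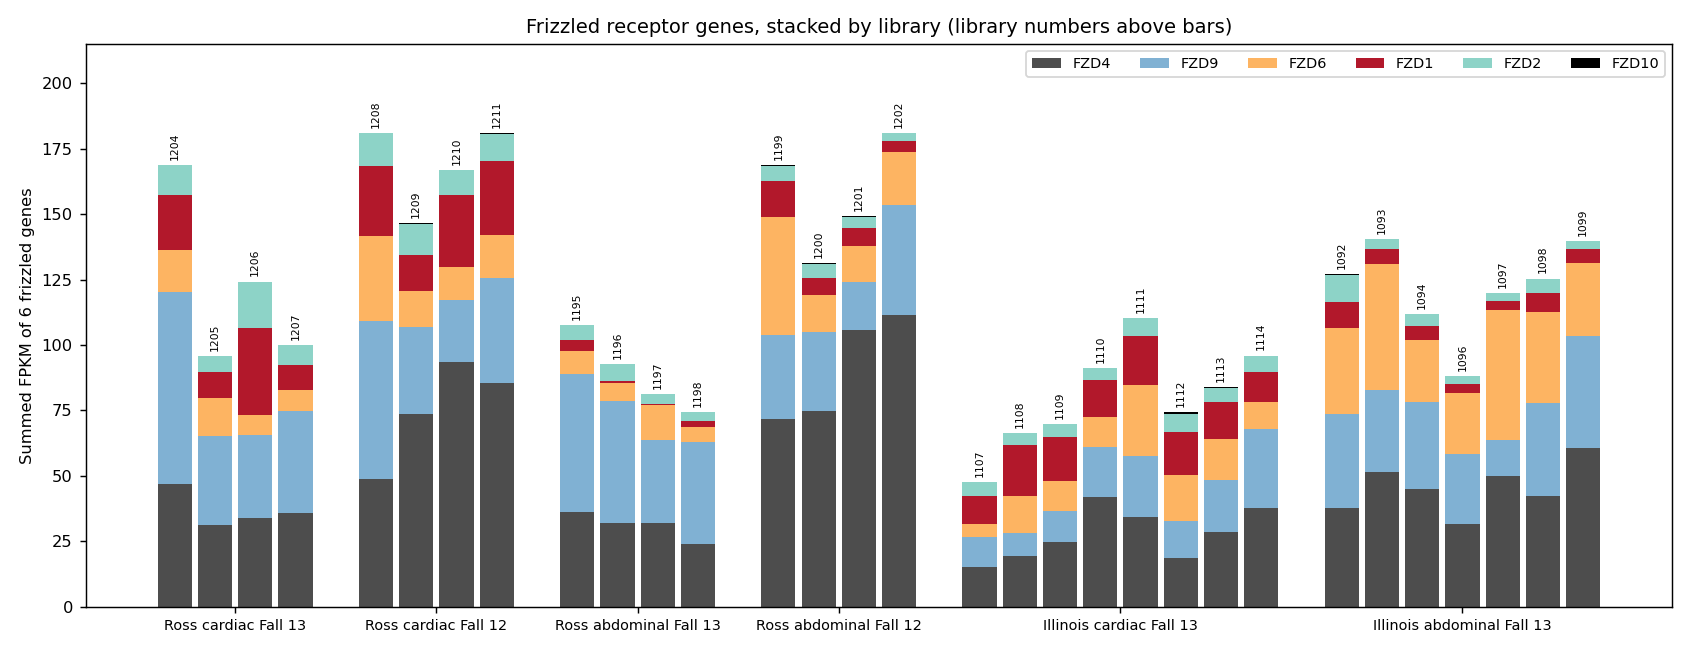
Summed FPKM of 6 frizzled genes in each library, stacked by gene, with library numbers above the bars and the groups below. The FZD1 segment takes 2.03% to 4.95% of the sum on average in the abdominal groups and 14.1% to 19.9% in the cardiac groups.

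In Ross birds, cardiac fat held more FZD1, FZD2 and AXIN2 than abdominal fat, while FZD4, FZD6 and FZD9 did not pass the test. The comparison took the mean of the differences within Fall 13 and within Fall 12, so that the trials weigh equally. It was fitted with limma on log2(FPKM + 1), with p-values adjusted by Benjamini-Hochberg over 423 genes and genes called below 0.05. Of the 6 tested genes 3 were called, all higher in cardiac fat, where 18.7% of all tested genes were called higher, 10.2% lower and 28.8% in either direction. Within Fall 13 the same 3 were called higher, where 12.1% of all tested genes were called higher and 3.78% lower, and within Fall 12 FZD1 and FZD2 were, where 8.27% were called higher and 4.73% lower. Over both trials, the median difference on the log2 scale was 0.45 for the 6 genes and 0.10 for all tested genes. All genes split into 79 higher and 43 lower, and into 59 and 63 after quantile normalization.

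FZD1 had 20.8, 9.80, 33.4 and 9.73 FPKM in Ross cardiac libraries of Fall 13, against 4.07, 0.602, 0.453 and 2.34 FPKM in Ross abdominal libraries of Fall 13. In Fall 12 it had 26.6, 14.0, 27.7 and 28.3 FPKM in cardiac and 13.8, 6.47, 6.81 and 3.86 FPKM in abdominal libraries. The depots did not overlap within either trial, as for 7.09% of all tested genes, although the lowest cardiac values of Fall 13 lay below the highest abdominal value of Fall 12. On the log2 scale the difference was 2.19 (SE 0.28, limma adjusted p = 1.91e-06), and it was 2.78 within Fall 13 (adjusted p = 1.08e-05) and 1.59 within Fall 12 (adjusted p = 0.00727).

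FZD2 had 11.46, 6.19, 17.5 and 7.49 FPKM in Ross cardiac libraries of Fall 13, against 5.71, 6.57, 3.94 and 3.46 FPKM in the abdominal libraries. In Fall 12 it had 12.7, 11.7, 9.26 and 10.3 FPKM in cardiac and 5.93, 5.19, 4.27 and 3.17 FPKM in abdominal libraries. The depots were clear of each other in Fall 12 and overlapped in Fall 13, where cardiac library 1205 lay below abdominal library 1196. The share of all tested genes without overlap in Fall 12 alone was not counted. This gave a log2 fold change of 1.01 (SE 0.20, limma adjusted p = 0.000466). Within the trials it was 0.91 in Fall 13 (adjusted p = 0.0265, or 0.0899 when Fall 13 libraries were fitted alone) and 1.10 in Fall 12 (adjusted p = 0.00950).

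AXIN2 had 5.87, 2.04, 6.02 and 2.29 FPKM in Ross cardiac libraries of Fall 13, against 0.604, 1.21, 0.447 and 1.08 FPKM in the abdominal libraries. In Fall 12 it had 3.73, 4.04, 5.89 and 8.41 FPKM in cardiac and 8.18, 4.59, 3.16 and 4.41 FPKM in abdominal libraries. In Fall 13 each cardiac library lay above all abdominal libraries, and in Fall 12 the depots covered nearly the same range. The share of all tested genes without overlap in Fall 13 alone was not counted. The log2 fold change over both trials was 0.74 (SE 0.21, limma adjusted p = 0.00810). It was 1.37 within Fall 13 (adjusted p = 0.00179) and 0.10 within Fall 12 (95% interval -0.50 to 0.71, adjusted p = 0.846), and 0.10 also when Fall 12 libraries were fitted alone (adjusted p = 0.837). The difference of the 2 trials' depot effects was 1.27 (SE 0.42) and was not called (adjusted p = 0.149), where 1.18% of all tested genes were called for that difference and none of the 6, of which 2 had an unadjusted p below 0.05.

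The other 3 receptors had depot differences in Ross that were within the spread of the libraries. The log2 fold change was -0.02 for FZD4 (95% interval -0.41 to 0.38), 0.06 for FZD6 (-0.51 to 0.64) and 0.17 for FZD9 (-0.35 to 0.68), with limma adjusted p-values of 0.950, 0.887 and 0.680. In Fall 12 FZD4 had 48.9, 73.5, 93.6 and 85.5 FPKM in cardiac libraries, against 71.6, 74.9, 105.8 and 111.4 FPKM in abdominal libraries. FZD6 in the same trial had 32.4, 13.4, 12.6 and 16.6 FPKM in cardiac and 44.8, 14.4, 13.8 and 20.3 FPKM in abdominal libraries. Ranges of the depots overlapped for both genes. For each of them, the cardiac library lay below the abdominal library with the same second number in 4 of 4 cases in Fall 12. In Fall 13 it did so in 1 of 4 and lay above in 3. Neither gene was called within either trial (limma adjusted p of 0.546 or higher).

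Of the marker genes of other cell types, 3 of 3 listed for the epicardium and 1 of 3 of fibroblasts and matrix (FBLN1) were called higher in Ross cardiac fat over both trials. So were 1 of 2 of blood and immune cells, 1 of 3 of dividing cells and 1 of 1 of nerve. Called lower were 2 of 6 of the endothelium (ERG and SOX18) and 1 of 3 of fat cells (PPARG). The 3 fat cell genes had a median log2 fold change of 0.09. Their sum was 8599 to 25991 FPKM in Ross cardiac Fall 13 and 4875 to 16823 in Ross cardiac Fall 12. It was 13688 to 15394 in Ross abdominal Fall 13 and 12162 to 16796 in Ross abdominal Fall 12. The 3 genes of the epicardium list were TBX18, TBX20 and TBX5. Their summed level lay between 23.8 and 35.1 FPKM in Ross cardiac Fall 13 and between 18.5 and 184 (median 26.0) in Ross cardiac Fall 12. It was 1.89 to 4.37 in Ross abdominal Fall 13 and 4.16 to 9.29 in Ross abdominal Fall 12. Libraries 1208 and 1209 of Ross cardiac Fall 12 held CASQ2 above 10 FPKM, and a part of heart muscle in this sum was not tested. The sum of 3 matrix genes of fibroblasts, FBLN1, FBN1 and FBN2, lay between 51.3 and 575 FPKM in Ross cardiac Fall 13, against 12.9 to 29.1 in Ross abdominal Fall 13, and between 107 and 242 in Ross cardiac Fall 12, against 42.3 to 395 in Ross abdominal Fall 12, where the ranges overlapped. The 6 endothelial genes summed to 284 to 548 FPKM in Ross cardiac Fall 13 and 295 to 661 in Ross cardiac Fall 12, against 322 to 606 in Ross abdominal Fall 13 and 540 to 800 in Ross abdominal Fall 12. Their part in the differences of FZD1, FZD2 and AXIN2 was not tested. Without the 4 libraries with CASQ2 above 10 FPKM the log2 fold change was 2.31 for FZD1, 0.94 for FZD2 and 0.92 for AXIN2, with limma adjusted p-values of 1.04e-05, 0.00547 and 0.00366.

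**Figure D3:**
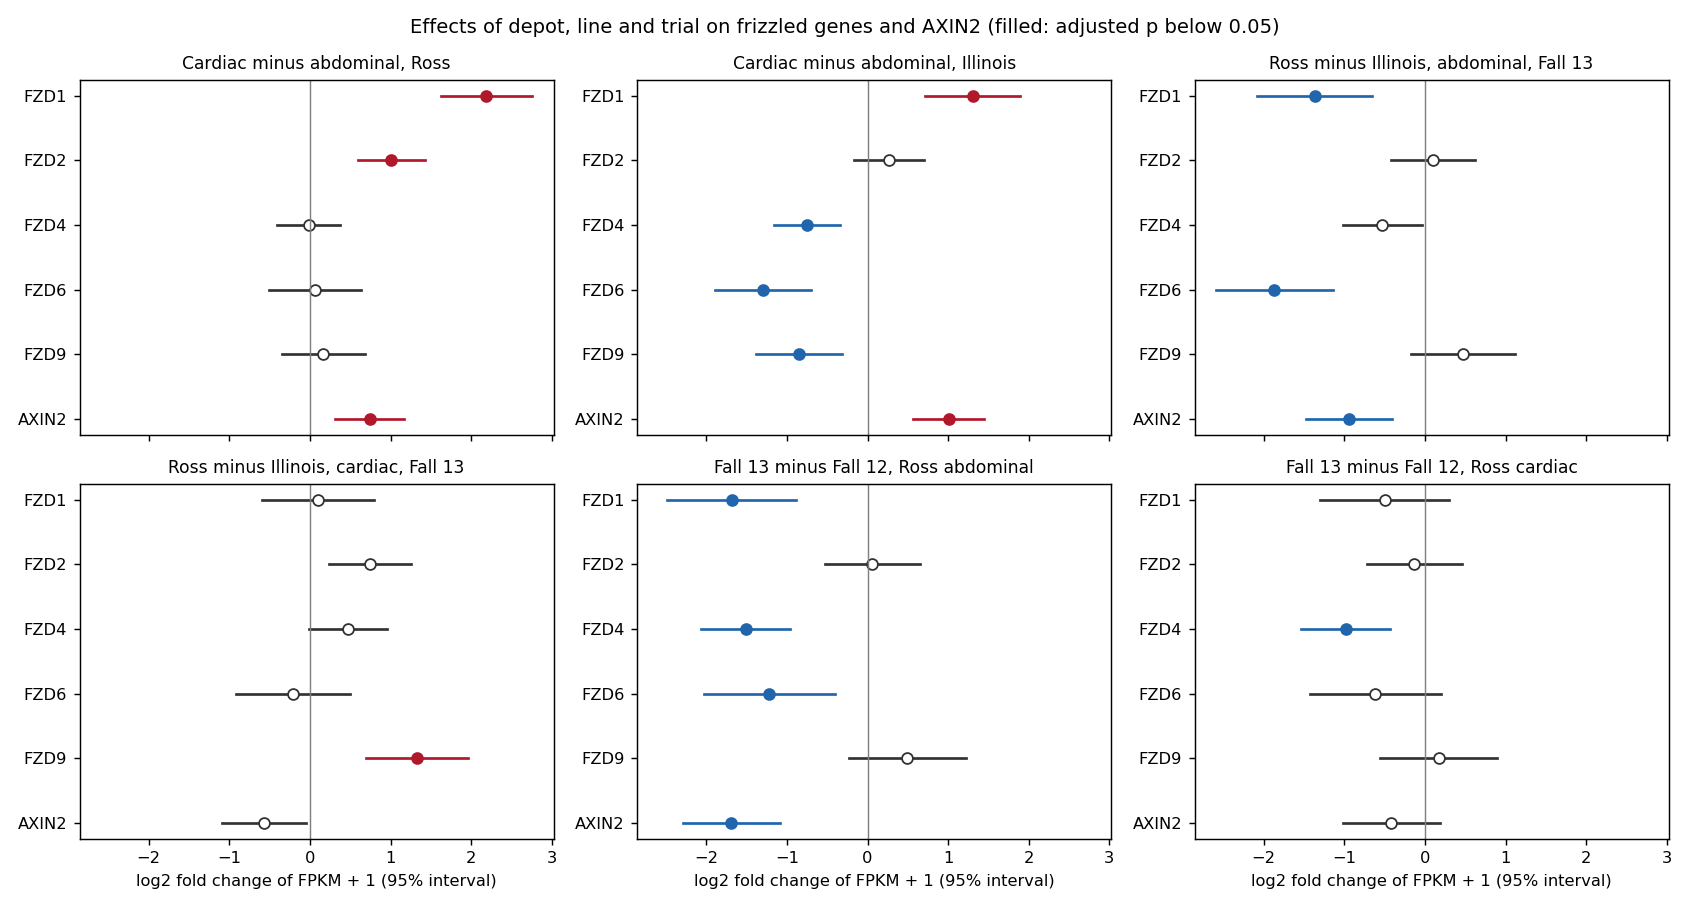
Log2 fold changes of FPKM + 1 with 95% intervals for 5 frizzled genes and AXIN2 in 6 comparisons, filled where the adjusted p is below 0.05. FZD1 and AXIN2 are to the right of 0 in both depot panels, while FZD4, FZD6 and FZD9 are to the left of 0 in the Illinois depot panel with intervals across 0 in the Ross panel.

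In Illinois birds, cardiac fat held more FZD1 and AXIN2 and less FZD4, FZD6 and FZD9 than abdominal fat. Of the 6 tested genes 2 were called higher, where 8.04% of all tested genes were, and 3 lower, where 11.1% were, against 19.1% called in either direction. The median log2 fold change was -0.24 over the 6 genes and -0.02 over all tested genes. All genes split into 34 higher and 47 lower, into 53 and 43 after scaling to the same upper quartile, and into 66 and 24 when FABP4 was left out and libraries were scaled to the same sum.

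FZD1 ranged from 10.8 to 19.3 FPKM with a median of 15.4 in Illinois cardiac libraries, and from 3.46 to 9.94 with a median of 5.41 in Illinois abdominal libraries. The ranges did not overlap, as for 6.15% of all tested genes. Its log2 fold change was 1.30 (SE 0.29, limma adjusted p = 0.00130).

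AXIN2 ranged from 3.49 to 7.63 FPKM with a median of 6.25 in cardiac libraries, and from 1.79 to 4.03 with a median of 2.02 in abdominal libraries. The ranges met only at their ends, and the abdominal median lay below all 8 cardiac libraries. In the fit the log2 fold change was 1.01 (SE 0.22, limma adjusted p = 0.000993).

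FZD6 ranged from 4.83 to 27.3 FPKM with a median of 12.9 in Illinois cardiac libraries, and from 23.5 to 49.6 with a median of 32.9 in abdominal libraries. FZD4 ranged from 15.3 to 42.1 with a median of 26.6 in cardiac, and from 31.8 to 60.7 with a median of 44.96 in abdominal libraries. FZD9 ranged from 8.74 to 29.9 with a median of 16.6 in cardiac, and from 13.8 to 42.7 with a median of 33.1 in abdominal libraries. For each of these 3 receptors, 8 of 8 cardiac libraries lay below the abdominal median while the ranges overlapped.

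The log2 fold change was -1.30 for FZD6 (SE 0.29), -0.75 for FZD4 (SE 0.20) and -0.85 for FZD9 (SE 0.26), with limma adjusted p-values of 0.00152, 0.00681 and 0.0208. The call of FZD9 was lost without cardiac library 1108 (adjusted p = 0.0519), without abdominal library 1099 (0.0517), without the 4 libraries with CASQ2 above 10 FPKM (0.0681), and when FABP4 was left out and libraries were scaled to the same sum (0.0735). The calls of FZD1, FZD4, FZD6 and AXIN2 were kept in each of these settings.

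FZD2 ranged from 4.38 to 6.90 FPKM with a median of 5.42 in Illinois cardiac libraries, and from 2.92 to 10.3 with a median of 3.95 in abdominal libraries. Library 1092 of the abdominal group held the highest value of both groups. The log2 fold change was 0.27 (95% interval -0.16 to 0.69, limma adjusted p = 0.418). Leaving out 1 library gave 0.19 to 0.44, with limma adjusted p-values of 0.0943 or higher.

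Of the marker genes, 3 of 3 listed for the epicardium, 1 of 2 of heart muscle and 1 of 1 of nerve were called higher in Illinois cardiac fat. Called lower were 2 of 3 of fat cells and 4 of 6 of the endothelium. Of fibroblasts and matrix, 1 of 3 was called higher and 1 lower. The sum of 3 fat cell genes lay between 1972 and 15278 FPKM in cardiac and between 16255 and 29645 in abdominal libraries. The sum of 6 endothelial genes, CDH5, FLT1, ERG, SOX18, CLDN5 and CAV1, lay between 210 and 477 in cardiac and between 605 and 905 in abdominal libraries. The sum of the 3 genes of the epicardium list lay between 25.2 and 112 (median 37.5) in cardiac and between 0.885 and 8.39 in abdominal libraries. These ranges did not overlap. Cardiac libraries 1107 and 1112 held CASQ2 above 10 FPKM, and a part of heart muscle in the last sum was not tested. The part of these marker genes in the differences of the 5 called genes was not tested.

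The depot effects of the 2 lines were compared within Fall 13, as the Ross effect minus the Illinois effect. By limma, with libraries taken as unpaired, none of the 6 genes was called, where 3.31% of all tested genes were. Of the 6, 3 had an unadjusted p below 0.05. Fits with a replicate block, in which calls differed, are given at the end. All called genes, 14, were higher, and the split was 7 higher and 3 lower after quantile normalization, 9 and 3 after upper quartile scaling and 2 and 15 when FABP4 was left out. The difference was 1.66 for FZD6 (95% interval 0.65 to 2.67, limma adjusted p = 0.0504), 1.47 for FZD1 (0.48 to 2.47, adjusted p = 0.0677), 1.00 for FZD4 (0.31 to 1.68, adjusted p = 0.0774), 0.85 for FZD9 (-0.05 to 1.75, adjusted p = 0.248), 0.65 for FZD2 (-0.08 to 1.37, adjusted p = 0.277) and 0.37 for AXIN2 (-0.38 to 1.11, adjusted p = 0.631). FZD6 passed the threshold when any of 6 libraries was left out, Ross cardiac 1207, Ross abdominal 1197, Illinois cardiac 1110, 1111 or 1113, or Illinois abdominal 1096, with adjusted p-values of 0.0484, 0.0379, 0.0485, 0.0271, 0.0493 and 0.0376. FZD1 passed it without Ross abdominal 1195 (0.0239) or Illinois abdominal 1096 (0.0492), and FZD4 without Illinois cardiac 1110 (0.0455) or Illinois abdominal 1096 (0.0486). In 12 other settings, the block fits among them, FZD6 passed in 3, FZD1 in 2 and FZD4 in 1. The 6 genes had a median of 0.92 in this comparison and all genes of 0.18. The median of all genes was -0.28 when FABP4 was left out and libraries were scaled to the same sum, and the values were then 1.15 for FZD6, 1.03 for FZD1, 0.46 for FZD4 and -0.02 for AXIN2.

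Between lines, Ross abdominal fat held less FZD1, FZD6 and AXIN2 than Illinois abdominal fat in Fall 13, the 1 trial with both lines. Of the 6 tested genes 3 were called, all lower in Ross, where 12.5% of all tested genes were called lower and 15.8% in either direction. The median log2 fold change was -0.74 over the 6 genes and -0.15 over all genes. All genes split into 14 higher and 53 lower, into 31 and 37 after quantile normalization, and into 40 and 27 when FABP4 was left out and libraries were scaled to the same sum. The 3 calls were kept under these scalings and under upper quartile scaling.

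FZD6 had 8.85, 7.04, 13.3 and 5.73 FPKM in Ross abdominal libraries of Fall 13, against 23.5 to 49.6 FPKM with a median of 32.9 in Illinois abdominal libraries. The lines did not overlap, as for 10.9% of all tested genes. Its log2 fold change was -1.87 (SE 0.35, limma adjusted p = 0.00105).

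AXIN2 had 0.604, 1.21, 0.447 and 1.08 FPKM in these Ross libraries, against 1.79 to 4.03 FPKM with a median of 2.02 in Illinois libraries. These ranges did not overlap either. Its log2 fold change was -0.94 (SE 0.26, limma adjusted p = 0.0178), and the adjusted p was 0.0583 without Ross library 1197.

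FZD1 had 4.07, 0.602, 0.453 and 2.34 FPKM in Ross and 3.46 to 9.94 FPKM with a median of 5.41 in Illinois abdominal libraries. The highest Ross value lay within the Illinois range. On the log2 scale the difference was -1.37 (SE 0.35, limma adjusted p = 0.00980), and the adjusted p was 0.0599 without Ross library 1196 and 0.0558 without 1197. With the Ross libraries of both trials pooled, the value was -0.53 for FZD1 (adjusted p = 0.363) and -0.10 for AXIN2 (adjusted p = 0.854). The other receptors had log2 fold changes of 0.10 (FZD2), -0.53 (FZD4) and 0.47 (FZD9) with limma adjusted p-values of 0.826, 0.125 and 0.318. Under upper quartile scaling FZD4 was called at -0.51 (limma adjusted p = 0.0473), and its exact permutation test (two-sided, not adjusted) gave p = 0.0182.

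Relative depth also differed between the lines in abdominal fat, as given above. Of the marker genes, 2 of 3 of fibroblasts and matrix (FBN1 and FBN2), 2 of 6 of the endothelium (CDH5 and CAV1) and 1 of 3 of fat cells (LEPR) were called lower in Ross. The sum of 3 matrix genes of fibroblasts lay between 12.9 and 29.1 FPKM in Ross and between 24.2 and 510 in Illinois libraries, and the sum of 6 endothelial genes between 322 and 606 in Ross and between 605 and 905 in Illinois libraries. The sum of 3 fat cell genes lay between 13688 and 15394 FPKM in Ross and between 16255 and 29645 in Illinois libraries. Their part in these differences was not tested.

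In cardiac fat, FZD9 was the member called between the lines, and it was higher in Ross, where 4.49% of all tested genes were called higher and 5.67% in either direction. FZD9 had 73.3, 34.1, 31.5 and 39.2 FPKM in Ross cardiac libraries of Fall 13, against 8.74 to 29.9 FPKM with a median of 16.6 in Illinois cardiac libraries. The lines did not overlap, as for 6.15% of all tested genes. This gave a log2 fold change of 1.32 (SE 0.31, limma adjusted p = 0.0109), with an adjusted p of 0.0626 without Ross library 1204 and of 0.0730 when cardiac libraries of Fall 13 were fitted alone.

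The values of the other genes in Ross against Illinois cardiac fat were 0.75 for FZD2 (95% interval 0.24 to 1.26, limma adjusted p = 0.0610), 0.47 for FZD4 (-0.01 to 0.95, adjusted p = 0.239), 0.10 for FZD1 (-0.59 to 0.80, adjusted p = 0.885), -0.21 for FZD6 (-0.91 to 0.50, adjusted p = 0.783) and -0.58 for AXIN2 (-1.10 to -0.05, adjusted p = 0.187). FZD2 had 11.46, 6.19, 17.5 and 7.49 FPKM in Ross libraries and 4.38 to 6.90 FPKM in Illinois libraries, so 1 Ross library lay within the Illinois range. When 1 library was left out, FZD2 and AXIN2 passed in 0 of 12 settings. In 14 other settings, with the exact permutation test read at an unadjusted p below 0.05, FZD2 passed in 5 and AXIN2 in 4. Exact permutation tests (two-sided, not adjusted) gave p = 0.00606 for FZD2 and 0.0384 for AXIN2. FZD2 was called after quantile normalization (limma adjusted p = 0.0438), and AXIN2 after upper quartile scaling (-0.75, adjusted p = 0.0320) and when FABP4 was left out (-0.83, adjusted p = 0.0206). FZD1 turned to -0.09 and -0.17 under the last 2 scalings and stayed uncalled. All genes split into 19 higher and 5 lower, into 20 and 12 after quantile normalization, into 9 and 22 after upper quartile scaling and into 5 and 29 when FABP4 was left out.

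Between the trials, Ross abdominal fat of Fall 13 held less FZD1, FZD4, FZD6 and AXIN2 than that of Fall 12. Of the 6 tested genes 4 were called, all lower in Fall 13, where 22.5% of all tested genes were called lower and 25.8% in either direction. Over all tested genes the median was itself below 0 here, at -0.30, and it was 0.02 after quantile normalization, 0.01 after upper quartile scaling and 0.09 when FABP4 was left out. All genes split into 14 higher and 95 lower, and under these scalings into 38 and 51, 38 and 61, and 45 and 48.

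AXIN2 had 0.604, 1.21, 0.447 and 1.08 FPKM in Ross abdominal libraries of Fall 13, against 8.18, 4.59, 3.16 and 4.41 FPKM in those of Fall 12. The trials did not overlap, as for 34.8% of all tested genes. In the limma fit the log2 fold change was -1.69 (SE 0.29, limma adjusted p = 0.000172), and it was -1.44, -1.41 and -1.39 under the 3 scalings, called in each.

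FZD4 had 36.1, 31.9, 31.9 and 24.0 FPKM in Fall 13, against 71.6, 74.9, 105.8 and 111.4 FPKM in Fall 12, again with no overlap. Its log2 fold change was -1.51 (SE 0.27, limma adjusted p = 0.000221), and it was -1.16, -1.15 and -1.07 under the 3 scalings, called in each.

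FZD1 had 4.07, 0.602, 0.453 and 2.34 FPKM in Fall 13, against 13.8, 6.47, 6.81 and 3.86 FPKM in Fall 12. The highest value of Fall 13 lay above the lowest of Fall 12. On the log2 scale the difference was -1.68 (SE 0.39, limma adjusted p = 0.00214), or -1.39, -1.40 and -1.35 under the scalings, called in each. An exact permutation test (two-sided) gave p = 0.0571, where 4 against 4 libraries cannot go below 0.0286.

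FZD6 had 8.85, 7.04, 13.3 and 5.73 FPKM in Fall 13, against 44.8, 14.4, 13.8 and 20.3 FPKM in Fall 12. The trials did not overlap, by the small step between 13.3 and 13.8 FPKM. This gave a log2 fold change of -1.22 (SE 0.40, limma adjusted p = 0.0230). The call was lost under each of the 3 scalings (-0.78, -0.88 and -0.80, with adjusted p-values of 0.147, 0.0910 and 0.147) and without abdominal library 1196 (adjusted p = 0.0602), 1198 (0.0825) or 1199 (0.128).

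FZD2 and FZD9 were not called in this comparison, with log2 fold changes of 0.06 (95% interval -0.52 to 0.65, limma adjusted p = 0.899) and 0.49 (-0.24 to 1.22, adjusted p = 0.343). FZD9 had 52.7, 46.6, 31.8 and 38.9 FPKM in Fall 13, against 32.4, 29.9, 18.3 and 42.2 FPKM in Fall 12. When FABP4 was left out its log2 fold change was 0.93 and it was called (adjusted p = 0.0424). The sum of 3 matrix genes of fibroblasts was 12.9 to 29.1 FPKM in Fall 13 and 42.3 to 395 FPKM in Fall 12, and its part in these differences was not tested.

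In Ross cardiac fat, FZD4 was the member called between trials, lower in Fall 13, where 9.69% of all tested genes were called lower and 10.4% in either direction. It had 46.99, 31.1, 34.01 and 35.8 FPKM in Fall 13, against 48.9, 73.5, 93.6 and 85.5 FPKM in Fall 12. The trials did not overlap, as for 12.8% of all tested genes, although 46.99 and 48.9 FPKM lay close. In the limma fit the log2 fold change was -0.98 (SE 0.27, limma adjusted p = 0.0188), and the adjusted p was 0.0581 without library 1205, 0.0722 without library 1210 and 0.0757 when Ross cardiac libraries were fitted alone.

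The other 5 genes had values of -0.62 for FZD6, -0.50 for FZD1, -0.42 for AXIN2, -0.13 for FZD2 and 0.17 for FZD9 in this comparison, with limma adjusted p-values from 0.366 to 0.857. All genes split into 3 higher and 41 lower, and into 18 and 21 after quantile normalization, 19 and 35 after upper quartile scaling and 12 and 39 when FABP4 was left out. Their median log2 fold change was -0.17 as deposited, and 0.05, -0.02 and -0.12 under these scalings.

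FZD10 stood so low that single fragments set its values. Its values were divided by the step that a single fragment makes in each library, and 22 of the 23 FZD10 values above the floor of the table then lay within 0.05 of a whole number of fragments. FZD10 was itself among the genes used to fit these steps, so this closeness follows from the fit and is no check of it. It was at the floor, 0.001 FPKM, in 8 of 31 libraries. A fragment of FZD10 stood for 0.0109 to 0.0471 FPKM. The smallest step is that of library 1113, whose depth may be off by a factor.

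The estimated fragments were 2, 0, 2 and 1 in Ross cardiac Fall 13, 7, 12, 8 and 8 in Ross cardiac Fall 12, 0 in each library of Ross abdominal Fall 13, 3, 7, 5 and 0 in Ross abdominal Fall 12, 1 to 25 in Illinois cardiac and 0 to 7 in Illinois abdominal libraries. The totals were 5, 35, 0, 15, 57 and 12 fragments. For the 4 libraries of Ross abdominal Fall 13 a count of 0 allows up to 3 fragments, which is 0.0671 to 0.141 FPKM by library and covers counting error only. The limit of 0.0671 FPKM is that of library 1196, whose depth may be off by a factor.

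Of the 57 fragments in Illinois cardiac fat 25 were in library 1112, which also held 27.5 FPKM of CASQ2. By exact permutation tests (two-sided) on log2(FPKM + 1), Illinois cardiac fat differed from abdominal fat with p = 0.0157 and Ross cardiac fat of Fall 13 from that of Fall 12 with p = 0.0286, the smallest p that 4 against 4 libraries allow. Both had an adjusted p of 0.0857 by Benjamini-Hochberg over the 6 comparisons of this gene, and did not pass. The trials did not overlap in Ross cardiac fat, which was so for 12.8% of all tested genes. At its smallest p, the comparison of the trials in Ross cardiac fat could pass the adjustment only together with other comparisons of low p. The other 4 comparisons had exact p-values from 0.0918 to 0.226. Among them, the trials in Ross abdominal fat had 0.143, the smallest p that its values tied at the floor allow. That test could therefore not call a difference.

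**Figure D4:**
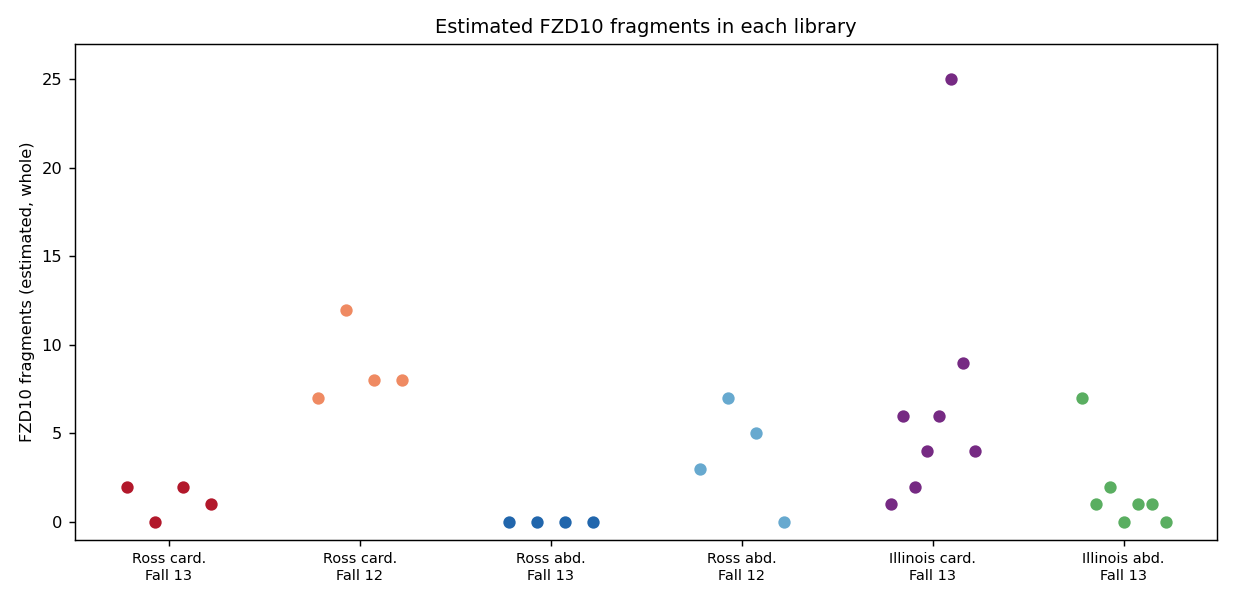
Estimated whole fragments of FZD10 in each library (points) of the 6 groups. All 4 libraries of Ross abdominal Fall 13 are at 0, those of Ross cardiac Fall 12 lie between 7 and 12, and library 1112 of Illinois cardiac fat stands apart at 25.

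Among the 6 members that passed the filter, AXIN2 and FZD1 followed each other most closely of 15 pairs. Pearson's r of log2(FPKM + 1) over the 31 libraries was 0.82, and 0.61 after the mean of each of the 6 groups was subtracted. FZD1 and FZD2 had 0.65 and 0.58, and FZD2 and AXIN2 had 0.41 and 0.54. The 4 libraries of Ross abdominal Fall 13 were low in AXIN2 and in FZD1, while their FZD9 was not. AXIN2 had r of 0.16 with FZD4 and of 0.12 with FZD6 (0.22 and 0.21 within groups). AXIN2 and FZD9 had r of -0.29 over all libraries and 0.31 within groups. These values are descriptions over libraries that share groups, depth and the division by the library total, and no test was made.

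**Figure D5:**
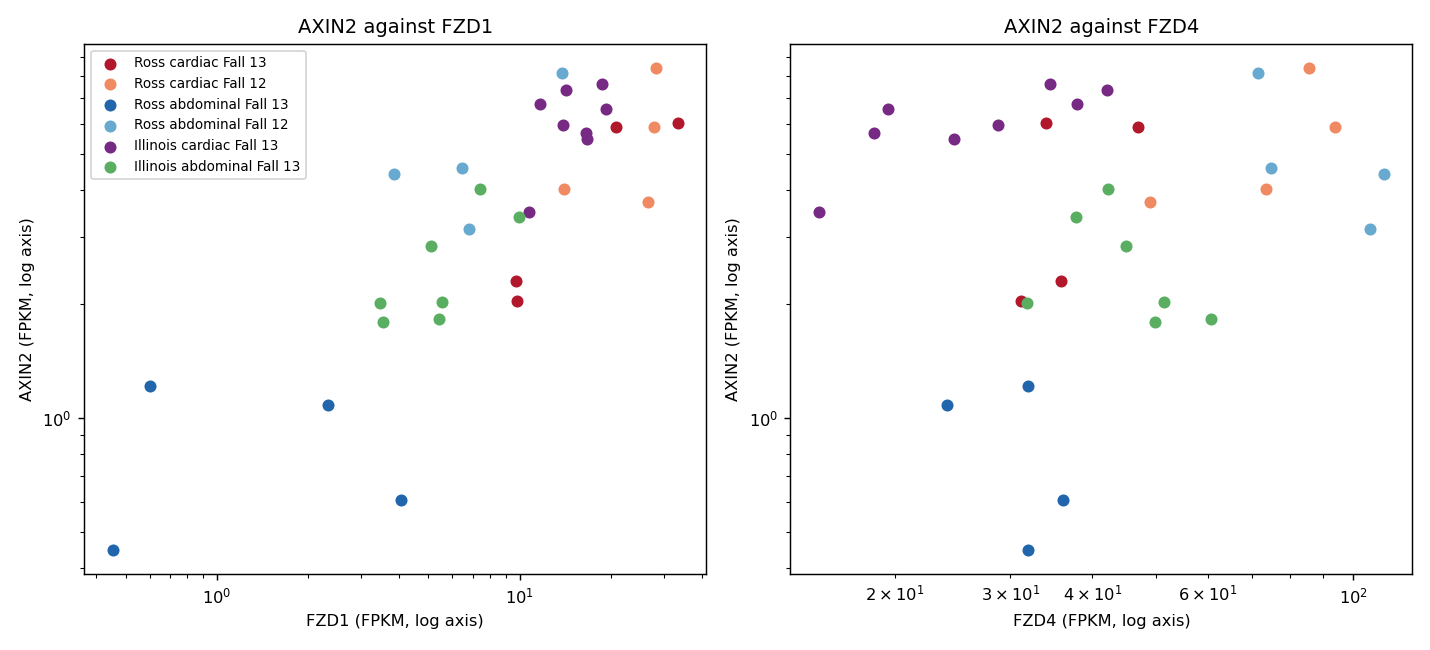
AXIN2 against FZD1 (left) and AXIN2 against FZD4 (right), FPKM in each library on log axes, coloured by group. On the left the libraries run from low in both genes in Ross abdominal Fall 13 to high in both in cardiac fat, with r of 0.82 on the log2(FPKM + 1) scale over 31 libraries. On the right r is 0.16.

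The tested genes most like each member were found by the same r over 31 libraries, with the value within groups beside it. FZD1 was most like FBLN1 (0.90 and 0.86), a matrix protein gene, then TBX18 (0.87 and 0.56), a factor of the epicardium, and ID4 (0.86 and 0.54), an inhibitor of differentiation. AXIN2 was most like CHRDL1 (0.86 and 0.69), an antagonist of bone morphogenetic proteins, then FZD1 and FBLN1 (0.82 and 0.55). FZD2 was most like IGFBP4 (0.78 and 0.66), and KCNA2 (0.71 and 0.56) was also among its closest.

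FZD4 was most like BMPR2 (0.88 and 0.65), a receptor of bone morphogenetic proteins, RECQL5 (0.83 and 0.43) and HS6ST1 (0.82 and 0.80), an enzyme that sulfates heparan chains. FZD9 was most like HS6ST2 (0.78 and 0.79), an enzyme of the same family, QSOX1 (0.72 and 0.54) and DCXR (0.67 and 0.45). The values of FZD6 were 0.72 with the gap junction gene GJA1 (0.51 within groups), 0.69 with KIT (0.37) and 0.68 with LMBR1 (0.32). For FZD1 with FBLN1, FZD4 with HS6ST1 and FZD9 with HS6ST2 the likeness within groups was nearly as high as over all libraries or higher.

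The table held 17 other genes from a list of the Wnt pathway, and 9 of them passed the filter, WNT2B, FZD7, FZD8, ROR1, CSNK1E, TCF7, TLE4, HDAC1 and CCND2. Between the Ross depots 2 of the 9 were called higher in cardiac fat, where 18.7% of all tested genes were. The 1 called lower, HDAC1, was at the floor of the table in all 8 Ross cardiac libraries and is not read as a difference. Between the Illinois depots none was, by limma, also at an unadjusted p below 0.05 (0 of 9). Between the lines 1 was called lower in Ross abdominal fat, where 12.5% of all tested genes were, and none in cardiac fat (3 at an unadjusted p below 0.05). Between the trials 3 were called lower in Ross abdominal fat of Fall 13, where 22.5% of all tested genes were, and 2 in Ross cardiac fat of Fall 13, where 9.69% were.

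FZD7, a receptor close to FZD1 and FZD2 in sequence, was called in 4 of these 6 comparisons. It averaged 3.35 ± 0.987 FPKM in Ross cardiac and 1.46 ± 0.834 in Ross abdominal libraries of Fall 13, and 6.63 ± 1.12 in Ross cardiac and 3.55 ± 0.924 in Ross abdominal libraries of Fall 12 (SD, n = 4 each). The log2 fold change between the Ross depots was 0.80 (SE 0.16, limma adjusted p = 0.000589). Between the trials it was -0.91 in abdominal fat (adjusted p = 0.00440) and -0.83 in cardiac fat (adjusted p = 0.0204), and between the lines it was -0.68 in abdominal fat (adjusted p = 0.0266). FZD8 was called in no comparison, with group means from 6.95 ± 1.28 FPKM in Ross abdominal Fall 12 to 12.5 ± 4.11 in Illinois abdominal fat.

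CSNK1E, a casein kinase that acts on dishevelled downstream of frizzled receptors, was higher in Ross cardiac than in Ross abdominal fat by 0.49 on the log2 scale (limma adjusted p = 0.0193) and lower in Ross abdominal fat of Fall 13 than of Fall 12 (-1.12, adjusted p = 0.000619). Its depot effect differed between the lines by 0.99 (adjusted p = 0.0423). The ligand gene WNT2B had 0.888 ± 0.493 FPKM in Ross abdominal fat of Fall 13 and 8.02 ± 8.18 in that of Fall 12, which differed by -1.79 on the log2 scale (adjusted p = 0.00362), with values between 0.960 and 19.5 FPKM within Fall 12. The receptor gene ROR1 had 1.46 ± 0.983 FPKM in Ross cardiac fat of Fall 13 and 4.55 ± 2.63 in that of Fall 12, a difference of -1.15 on the log2 scale (adjusted p = 0.0286). Whether the calls of FZD7, CSNK1E, WNT2B and ROR1 hold under other scalings or without single libraries was not tested.

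HDAC1, a histone deacetylase that acts with TLE repressors, was listed at the floor in 8 of 8 Ross cardiac libraries and between 7.11 and 13.98 FPKM in Ross abdominal libraries. It was also at the floor in 4 of 8 Illinois cardiac and 3 of 7 Illinois abdominal libraries, which can be a failed estimate, and no fold change is given. Of the secreted antagonists, SFRP1, DKK1 and SOSTDC1 were in the table and none passed the filter. SFRP1 reached 1.31 to 5.22 FPKM in Ross cardiac fat of Fall 12, against at most 0.566 FPKM in each other group.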

How the data were processed

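Fat of 31 libraries was measured by sequencing of polyA RNA with libraries from a stranded kit by Illumina, per the labels' protocols. Bowtie, TopHat and Cufflinks were run by the authors, per the submitters' processing notes. The sources used here give no tool version, genome build or annotation. The authors deposited FPKM values, a unit inferred from Cufflinks and from how the values run, because the file headers do not name it. Since FPKM is relative to a library's total, an abundant gene such as FABP4 lowers the other genes. The table held 567 lines, of which 566 were complete and 2 were exact duplicates, leaving 564 genes. Percentages of all tested genes refer to this table, not to the whole genome. Every column was matched to a library, with 0 unmatched, and 0.001 FPKM was taken as a floor. RefSeq names served as a check only.

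Values were analysed as log2(FPKM + 1) with limma 3.58.1 (statmod 1.5.0) in R 4.3.3, keeping genes that reached 1 FPKM in 7 or more libraries. With this pseudocount, changes of low genes are understated. The model had 6 group means over all libraries, a mean-variance trend and robust moderation, tests were two-sided, and Benjamini-Hochberg adjusted over all 423 tested genes. Intervals are 95%. The steps were tested on simulated data. Relative depth came from steps between low values, which placed 87.8% of 894 such values within 0.05 of whole fragments, and 19.2% as a mean of 20 shuffles of the depths. The depths were fitted to give whole fragments and shuffled depths were not fitted again, so these shares are not on equal terms. The depths of libraries 1113 and 1196 may be off by a factor.

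The genes and lists were chosen with earlier results of these data known. All 7 members were named, other Wnt genes where called in a comparison, and the 3 genes most like each member, of which 1 is not reported here. Alternatives were other pseudocounts, filters, scalings, moderation, an additive trial term, fits of fewer libraries, exact permutation tests, leaving out each library, and, chosen after seeing the data, a replicate block and leaving out 4 libraries with heart muscle signal. The scaling with FABP4 left out used the sum of the other genes of the table, not of the whole library.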

Additional observations from a re-analysis of the deposited data

Results flagged for a closer look

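Of 41 sets of a gene in a group of 4 to 8 libraries, 4 held a library far from the others of its group. Libraries were judged by the gap to the nearest other over the range of the group. Chance gives about 1 in 20 for normally distributed values. FPKM can be skewed and FZD10 rests on few fragments, so that rate may not hold here. FZD1 in Ross cardiac fat of Fall 12 was 14.0 FPKM in library 1209, against 26.6 FPKM in the nearest of the other 3, and this library also held 18.1 FPKM of CASQ2. FZD2 in Illinois abdominal fat was 10.3 FPKM in library 1092, against 5.43 FPKM in the nearest. FZD10 in the same library was 0.116 FPKM, or 7 fragments, against 0.0304 FPKM in the nearest. FZD10 in Illinois cardiac library 1112 was 0.561 FPKM, or 25 fragments, against 0.144 FPKM in the nearest.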

How the results depend on the processing

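The 17 member calls by limma had 447 alternatives, of which 421 kept the call, 26 lost it and 0 reversed it. Exact permutation tests among these were read at an unadjusted p below 0.05, and the other alternatives at an adjusted p below 0.05. The calls kept in every alternative run were FZD1 between the Ross depots, FZD1, FZD4, FZD6 and AXIN2 between the Illinois depots, FZD6 between the lines in abdominal fat, and FZD4 and AXIN2 between the trials in abdominal fat. Lost calls beside those in the report were, between the lines in abdominal fat, FZD1 at a pseudocount of 5 (adjusted p = 0.0609), and AXIN2 at a pseudocount of 5 (0.0862) and with an additive trial term (0.109). That term is a single trial difference shared by both Ross depots. With it, FZD1, FZD6 and AXIN2 were called between the trials at -1.09, -0.92 and -1.05, which are not values of cardiac fat alone. The cause of these changes was not tested.

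Values that changed sign were all of uncalled members, with adjusted p-values of 0.478 or higher. Between the Ross depots they were 0.038 (FZD4) and -0.11 (FZD6) after quantile normalization, -0.0039 (FZD6) with FABP4 left out, 0.25 (FZD4) in Fall 13 alone, -0.24 (FZD6) in Fall 12 alone, and 0.13 (FZD4) and -0.065 (FZD6) without the libraries with heart muscle signal. Between the lines they were 0.23 (FZD4, abdominal) and 0.10 (FZD6, cardiac) with the trial ignored, and -0.089, -0.17 and -0.19 (FZD1, cardiac) with upper quartile scaling, FABP4 left out and an additive trial term. Between the trials FZD2 gave -0.034 with the additive term, a value shared by both depots that is set here against the abdominal one. In cardiac fat it gave 0.010, 0.030 and 0.014 with quantile normalization, upper quartile scaling and no muscle libraries. AXIN2 gave -0.018 for the difference between lines with FABP4 left out. Leaving out 1 library gave ranges of -0.076 to 0.079 (FZD4) and -0.082 to 0.24 (FZD6) between the Ross depots, -0.028 to 0.28 (FZD2, abdominal) and -0.23 to 0.33 (FZD1, cardiac) between the lines, -0.075 to 0.19 (FZD2, abdominal), -0.39 to 0.070 (FZD2, cardiac) and -0.10 to 0.40 (FZD9, cardiac) between the trials, and -0.45 to 0.0080 (FZD2) for the difference between trials.

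Counts of called genes moved by over 1.5 times as follows. Between the Ross depots 122 became 59 (Fall 13 alone) and 35 (Fall 12 alone). Between the lines 67 became 43 (abdominal, pseudocount 5) and 24 became 1 (cardiac libraries alone). Between the trials in cardiac fat 44 became 13 (these libraries alone) and 124 (additive term, which is shared by both Ross depots). The difference between lines went to 27 (pseudocount 0.1) and 6 (these libraries alone) against 14, and that between trials to 0 (pseudocount 5, by limma, with 53 genes at an unadjusted p below 0.05), 15 (no filter) and 2 (quantile normalization) against 5. Leaving out 1 library gave 32 to 66 and 8 to 29 between the lines in abdominal and cardiac fat, 26 to 45 between the trials in cardiac fat, and 7 to 33 and 0 to 10 for the differences between lines and between trials (0 without Ross abdominal 1200, with 46 genes at an unadjusted p below 0.05).

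Column names carry a second number that 15 pairs of cardiac and abdominal libraries share, and no source says what it is. Deviations of libraries with the same number had r from -0.11 to 0.46 (median 0.13), 9 of 15 over 0.1. Of 15 cardiac libraries 8 were most like the abdominal library of their own number, out of 4 in each Ross trial and 7 in Illinois. The numbers, each shared within 1 line and trial, and these values of r are a hint of pairing that the sample labels do not state. Since not every pair was over 0.1, the libraries were not treated as paired. That limit is a rule of choice, not a test of pairing. With the number as a random replicate block, the difference between lines had 36 calls, among them FZD1, FZD4 and FZD6 (limma adjusted p = 0.0410, 0.0410 and 0.0241). As a fixed block it had 27, with FZD6 at 0.0332. The block ended none of the 17 calls. Depth limits FZD10, whose values rest on 0 to 25 fragments a library. The effect of depth on the other members was not tested.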
